A study of Homo sapiens with 10 samples.

Results

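The MARCKS proteins and the protein kinase C (PKC) isoforms were followed here as 10 genes, MARCKS, MARCKSL1, PRKCA, PRKCB, PRKCD, PRKCE, PRKCH, PRKCQ, PRKCZ and PRKCI, out of 58721 rows of the count table. Each was found by its GENCODE release 29 gene name, and all 10 matched exactly 1 row. The genes had been picked because of their levels in clones with R475C DDX3X against clones with wild-type DDX3X, so their values in that contrast are given as a description, without p-values, and nothing is supported with them. The samples came from a human lymphoma cell line labelled U2392. In every sample the cells had received a Cas9 and guide RNA plasmid together with a double-stranded repair template, had been sorted for GFP and had been single-cell cloned and cultured in RPMI medium. Every template carried a silent PAM change and a silent SpeI site, with the wild-type DDX3X sequence otherwise in 6 samples and R475C in 4 samples. DDX3X encodes an RNA helicase that takes part in translation initiation. The labels do not say which samples are separate clones, so SDs, SEs and p-values cover variation among these libraries only, and some of it may be technical.

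PKC isoforms are serine and threonine kinases, most of which act downstream of phospholipase C. Conventional isoforms (PRKCA, PRKCB) need calcium and diacylglycerol, calcium-independent isoforms (PRKCD, PRKCE, PRKCH, PRKCQ) need diacylglycerol alone, and atypical isoforms (PRKCZ, PRKCI) need neither. In B cells the isoform encoded by PRKCB couples the antigen receptor to NF-kB through BCL10 and MALT1. MARCKS and MARCKSL1 are membrane-bound PKC substrates that bind phosphoinositides, calmodulin and actin, and phosphorylation releases them from the membrane.

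The stretch that PKC phosphorylates is basic and shared by both MARCKS proteins, and its coding sequence is shown because it joins the substrates to the kinases. Capitals mark the serine codons, of which MARCKS has 4 and MARCKSL1 has 3. In MARCKS the stretch lies in the coding part of exon 2 of 2 at chr6:113860034-113860108 (GRCh38, plus strand, codons 152 to 176). In MARCKSL1 it lies in exon 2 of 2 at chr1:32334855-32334926 (minus strand, codons 87 to 110).
MARCKS: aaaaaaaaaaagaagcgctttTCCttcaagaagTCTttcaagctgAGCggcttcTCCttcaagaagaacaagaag
MARCKSL1: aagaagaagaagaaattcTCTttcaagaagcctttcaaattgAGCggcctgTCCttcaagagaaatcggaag
Aligned end to end, 56 of 75 positions were identical (74.7%), against 42.9% over the whole coding sequences. Among the kinases PRKCA and PRKCB had the most similar coding sequences (73.6%). PRKCI and PRKCZ, the atypical pair, were 55.9% identical and PRKCD and PRKCQ 65.5%. Reads of the members could be told apart all the same: MARCKS, MARCKSL1, PRKCE and PRKCQ shared no 50-base stretch with the transcripts of any other gene, and PRKCB shared 0.081% of its 50-base stretches. PRKCH shared 8.16%, PRKCZ 8.78% and PRKCI 5.76%. Most of the PRKCI stretches (326 of 333) are also in 1 unnamed locus, AC234775.2, so PRKCI reads from there are uncertain.

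MARCKS and PRKCB were the 2 members whose R475C samples all lay below the wild-type samples, and the sequences upstream of their starts are shown for that reason. They come from RefSeq (GRCh38.p14), chr6:113857095-113857344 for MARCKS and chr16:23835733-23835945 for PRKCB, both on the plus strand and both ending before the first annotated transcript base. Capitals mark GC boxes (GGGCGG on either strand).
MARCKS: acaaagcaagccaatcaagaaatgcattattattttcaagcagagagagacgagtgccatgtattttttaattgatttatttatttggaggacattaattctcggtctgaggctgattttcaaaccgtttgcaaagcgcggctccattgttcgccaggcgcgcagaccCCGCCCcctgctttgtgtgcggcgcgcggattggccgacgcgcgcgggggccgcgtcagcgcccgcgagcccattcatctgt
PRKCB: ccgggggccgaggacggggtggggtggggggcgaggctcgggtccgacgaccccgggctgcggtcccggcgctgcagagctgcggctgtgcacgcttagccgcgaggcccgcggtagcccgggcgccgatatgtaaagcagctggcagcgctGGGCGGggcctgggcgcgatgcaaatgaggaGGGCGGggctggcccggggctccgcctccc
Over the 250 bases before the start MARCKS was 52.8% GC with 23 CpG, 1 GC box and 2 CCAAT boxes. PRKCB was 77.2% GC with 30 CpG, 2 GC boxes and no CCAAT. The median of 34943 RefSeq promoters was 58% GC and 11 CpG. GC boxes were in 42.5% of these promoters, and CCAAT on either strand in 32%. Neither window held TATAAA (10.8% of promoters), CACGTG (6.3%), CAGGTG (17.5%) or the AP-1 sequence TGACTCA (4.2%), all searched on both strands. PRKCQ was the member with TATAAA and had 8 CpG, while 1 of the 3 promoters of PRKCD had 6 CpG. MARCKSL1 had 6 GC boxes, and 1 of the 4 promoters of PRKCZ had 7.

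Total counts ran from 8928539 (R475C replicate 4) to 53779005 per sample. Levels are given as CPM, the read count of a gene relative to its library's total after edgeR's TMM scaling. Within genotypes the samples lay closest in pairs, and the first principal component of log2 CPM, after subtraction of each genotype's mean, split them into set A (wild-type replicates 1 and 4, R475C replicates 1 and 3) and set B (the other 6). The sources used here do not say whether samples of a set share a clone or a batch. B-cell markers were present in all samples, with MS4A1, CD79A, CD79B and PAX5 between 265.9 and 2168 CPM. T-cell, myeloid, and stromal or epithelial marker values stand beside the members they bear on.

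MARCKS (ENSG00000277443.2; chromosome 6, 113857362 to 113863471) held 9.43, 27.4, 20.5, 14.02, 23.0 and 28.1 CPM in wild-type replicates 1 to 6. In R475C replicates 1 to 4 it held 1.08, 2.89, 0.483 and 3.31 CPM. All R475C samples lay below all wild-type samples, and the lowest wild-type samples, replicates 1 and 4, belonged to set A, as did the lowest R475C samples. The reads behind these values numbered 324 to 955 in wild-type and 21, 153, 16 and 30 in R475C, so the R475C levels carry a large counting error. The mean was 20.4 ± 7.43 CPM (SD, n = 6) against 1.94 ± 1.37 CPM (SD, n = 4), and the fitted log2 fold change was -3.44 (SE 0.52), 10.9-fold lower. In set A the means were 11.7 and 0.784 CPM, 14.96-fold lower in R475C, and in set B 24.7 and 3.10 CPM, 7.97-fold lower. No expressed gene overlapped MARCKS. In such bulk samples fewer cells with MARCKS RNA and less MARCKS RNA per cell cannot be told apart.

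MARCKS is also made by many other cell types, so markers of those are given beside it. The 6 stromal and epithelial markers summed to 35.1 to 39.0 CPM in wild-type and 24.3 to 29.1 CPM in R475C. EPCAM, the epithelial one with the highest level, was at 16.4 to 37.2 CPM and was lowest in wild-type replicates 6 and 2 (16.4 and 19.1 CPM), the samples with the most MARCKS and the most DCN. COL1A2 was at 0 in all samples, KRT8 was at most 0.209 CPM, and LUM was at 0 in every R475C sample and up to 2.93 CPM in wild-type. DCN, a proteoglycan gene of fibroblasts, was at 0 to 3.42 CPM in R475C and 7.29 to 14.8 CPM in wild-type replicates 2, 3, 5 and 6. In wild-type replicates 1 and 4 DCN was at 0.146 and 0 CPM and LUM at 0 in both, while MARCKS there was at 9.43 and 14.02 CPM, above every R475C sample. In the R475C samples DCN was at 2.67 and 3.42 CPM in replicates 2 and 4, the same samples with more MARCKS, and at most 0.0302 CPM in replicates 1 and 3. DCN thus followed the sets: it ran from 2.67 to 14.8 CPM in set B and from 0 to 0.146 CPM in set A. Whether the cells behind these markers have a part in the MARCKS difference was not tested. COL1A1 was at 0.495 to 3.71 CPM in wild-type and 0.132 to 3.09 CPM in R475C.

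MARCKSL1 (ENSG00000175130.6; chromosome 1, 32333832 to 32336379), the smaller relative, did not share this pattern. It held 214.3, 247.5, 223.8, 306.1, 241.8 and 204.6 CPM in wild-type replicates 1 to 6 and 270, 263.3, 254.5 and 283.9 CPM in R475C replicates 1 to 4. The R475C samples all lay within the wild-type range, and the log2 fold change was 0.16 (SE 0.11). Per kb of exon MARCKSL1 was at 141 ± 21.4 CPM per kb in wild-type, and MARCKS at 4.77 ± 1.74. MARCKS made up 3.34% ± 1.36 of the summed per-kb level of the pair in wild-type and 0.283% ± 0.194 in R475C. The sum itself was 145.8 ± 20.99 and 158.1 ± 7.54 CPM per kb, with ranges of 127 to 183.4 and 149.9 to 167.9.

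**Figure D1:**
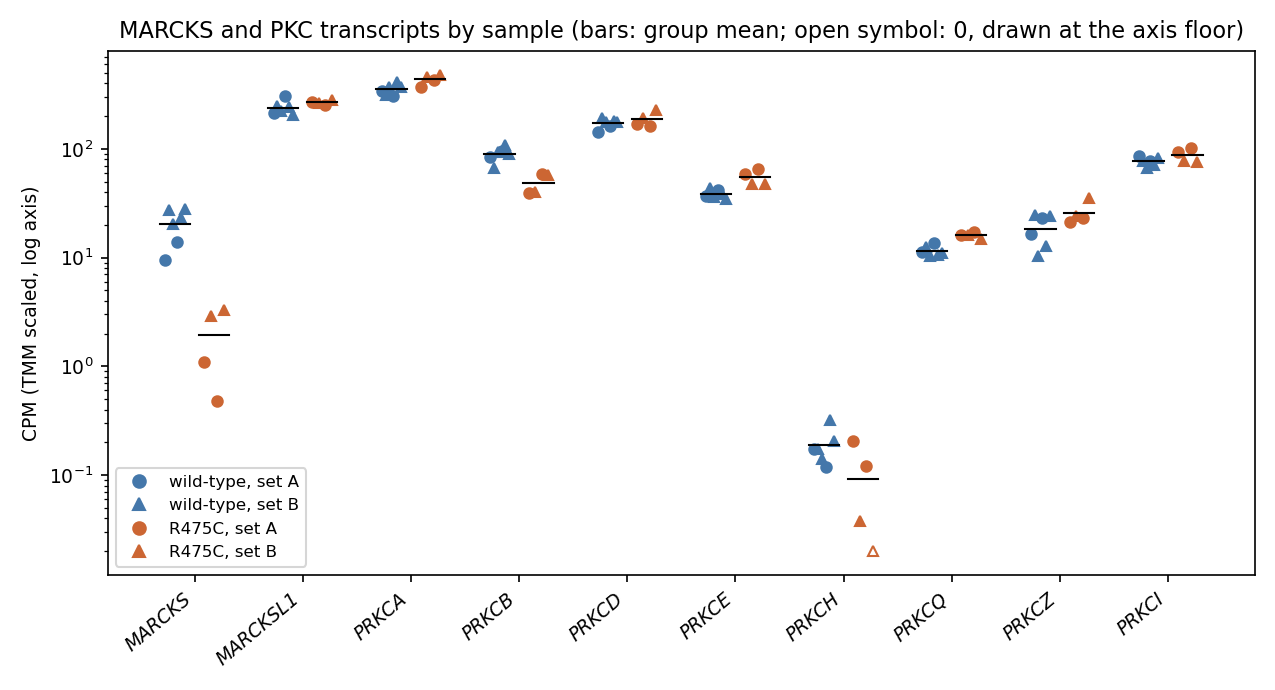
CPM of each gene in every sample on a log axis, wild-type in blue and R475C in orange, circles for set A and triangles for set B, with bars at group means. MARCKS and PRKCB separate downward, PRKCE and PRKCQ upward, and PRKCH lies under 0.4 CPM throughout.

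Among the conventional isoforms PRKCB (ENSG00000166501.13; chromosome 16, 23835946 to 24220611) was lower in R475C. Wild-type replicates 1 to 6 held 84.5, 66.0, 93.2, 96.1, 109.5 and 89.0 CPM, and R475C replicates 1 to 4 held 39.0, 40.3, 58.9 and 57.0 CPM. The groups did not overlap, with wild-type replicate 2 nearest to the R475C samples. The means were 89.7 ± 14.4 and 48.8 ± 10.6 CPM, a log2 fold change of -0.88 (SE 0.16), 1.84-fold lower. Unlike for MARCKS the ratio was nearly equal in both sets, 1.84-fold lower in each.

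PRKCA (ENSG00000154229.11; chromosome 17, 66302636 to 66810743), the other conventional isoform measured, went the other way within an overlap. It was at 305.7 to 412.7 CPM in wild-type (median 354.6) and at 370.9, 454.4, 431.9 and 481.3 CPM in R475C replicates 1 to 4, a log2 fold change of 0.30 (SE 0.10). In R475C, 3 of the 4 samples exceeded the highest wild-type sample. Per kb of exon PRKCA exceeded PRKCB 3.95 ± 0.511-fold in wild-type and 9.08 ± 1.67-fold in R475C, and these ratios did not overlap (3.16 to 4.73 against 7.29 to 11.2). The summed conventional level was 39.7 ± 4.56 CPM per kb in wild-type and 43.4 ± 4.80 in R475C, with overlapping ranges.

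The calcium-independent isoforms were led by PRKCD (ENSG00000163932.13; chromosome 3, 53156009 to 53192717), a kinase with roles in B-cell tolerance. It was at 142.7 to 193.6 CPM in wild-type and 169.5, 191.3, 160.8 and 226.7 CPM in R475C, with overlap and a log2 fold change of 0.12 (SE 0.11). Its set B samples (176.6 to 226.7 CPM) all lay above its set A samples (142.7 to 169.5 CPM), whatever the genotype.

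PRKCE (ENSG00000171132.13; chromosome 2, 45651345 to 46187990) was higher in R475C. It held 36.6, 43.3, 36.3, 41.6, 38.6 and 34.8 CPM in wild-type replicates 1 to 6 and 58.9, 47.7, 64.5 and 47.8 CPM in R475C replicates 1 to 4. No R475C sample fell into the wild-type range, and the log2 fold change was 0.51 (SE 0.11), 1.42-fold. The set A samples of R475C carried more of it: R475C was 1.58-fold above wild-type in set A and 1.25-fold in set B.

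PRKCQ (ENSG00000065675.14; chromosome 10, 6427143 to 6580301), best known as the T-cell isoform, was low but measurable. It held 11.2, 12.4, 10.4, 13.6, 10.5 and 10.98 CPM in wild-type replicates 1 to 6 and 16.2, 16.3, 17.0 and 14.7 CPM in R475C replicates 1 to 4. The groups did not overlap, and the log2 fold change was 0.48 (SE 0.12), 1.40-fold. Of the 5 T-cell markers CD3D and CD3G were at 0 in every sample and CD3E was at most 0.324 CPM, while TRAC and CD247 lay between 2.10 and 9.65 CPM. Their sum was 5.94 to 14.1 CPM in wild-type and 12.6 to 15.8 CPM in R475C, and its part in the PRKCQ difference was not tested.

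PRKCH (ENSG00000027075.14; chromosome 14, 61187559 to 61550976), the remaining calcium-independent isoform, had 3 to 7 reads in each wild-type sample and 4, 2, 4 and 0 reads in R475C replicates 1 to 4. It did not pass the filter on low counts, and no fold change is given. With it left aside, 9 of the 10 members entered the fit. Myeloid markers were low too, with all 5 at or under 0.748 CPM and MPO at 0.

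The atypical isoforms PRKCI and PRKCZ overlapped between genotypes. PRKCI (ENSG00000163558.12; chromosome 3, 170222365 to 170305981), a polarity kinase, was at 66.6 to 86.3 CPM in wild-type and 93.5, 77.5, 102.1 and 76.0 CPM in R475C, a log2 fold change of 0.18 (SE 0.11). In R475C the set A samples, replicates 1 and 3, were the high ones. PRKCZ (ENSG00000067606.16; chromosome 1, 2050470 to 2185395) held 16.4, 24.6, 10.2, 22.9, 12.7 and 24.1 CPM in wild-type and 21.2, 24.2, 22.9 and 35.4 CPM in R475C, a log2 fold change of 0.48 (SE 0.25). Wild-type replicates 3 and 5 were its lowest samples. FAAP20, which shares 590 exon bases with PRKCZ on the opposite strand (7.73% of its exon), was lowest in the same 2 samples, at 12.9 and 15.2 CPM against 23.2 to 34.6 in the other wild-type samples. The sources used here do not state whether strand was used in the counting, so reads of this overlap cannot be told apart.

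Per kb of exon the wild-type order was MARCKSL1 (141), PRKCD (50.6), PRKCA (31.6), PRKCI (13.2), PRKCB (8.09), MARCKS (4.77), PRKCE (3.89), PRKCQ (3.49), PRKCZ (2.42) and PRKCH (0.0215 CPM per kb). The steps from MARCKSL1 down to PRKCB were seen in all 6 wild-type samples without overlapping ranges. Of the neighbours with overlapping ranges, PRKCB stood above MARCKS in 5 of 6 samples and MARCKS above PRKCE in 4 of 6, so those orders are not settled by these samples. PRKCE above PRKCQ and PRKCQ above PRKCZ held in 6 of 6 samples, although their ranges overlapped. In R475C the first 4 places were the same, then PRKCE (5.52), PRKCQ (4.87), PRKCB (4.40), PRKCZ (3.40) and MARCKS (0.455 CPM per kb). PRKCB stood below PRKCQ in 2 of the 4 R475C samples and above it in the other 2. The lengths are those of all annotated exons, and which transcript forms were used was not measured.

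Summed over the 8 kinases the level was 113.2 ± 6.08 CPM per kb in wild-type and 127.2 ± 10.8 in R475C (ranges 104.3 to 120.5 and 116.3 to 142). The balance of classes was alike in means: conventional isoforms took 35.0% ± 3.29 and 34.1% ± 1.76 of the sum, calcium-independent 51.2% ± 3.06 and 51.4% ± 2.51, and atypical 13.8% ± 2.00 and 14.5% ± 2.13. Inside the conventional class PRKCB went from 7.15% ± 1.104 to 3.45% ± 0.653 of the sum, while PRKCA went from 27.9% ± 2.498 to 30.6% ± 1.52. PRKCB shares did not overlap (5.14 to 8.20% against 2.86 to 4.30%).

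**Figure D2:**
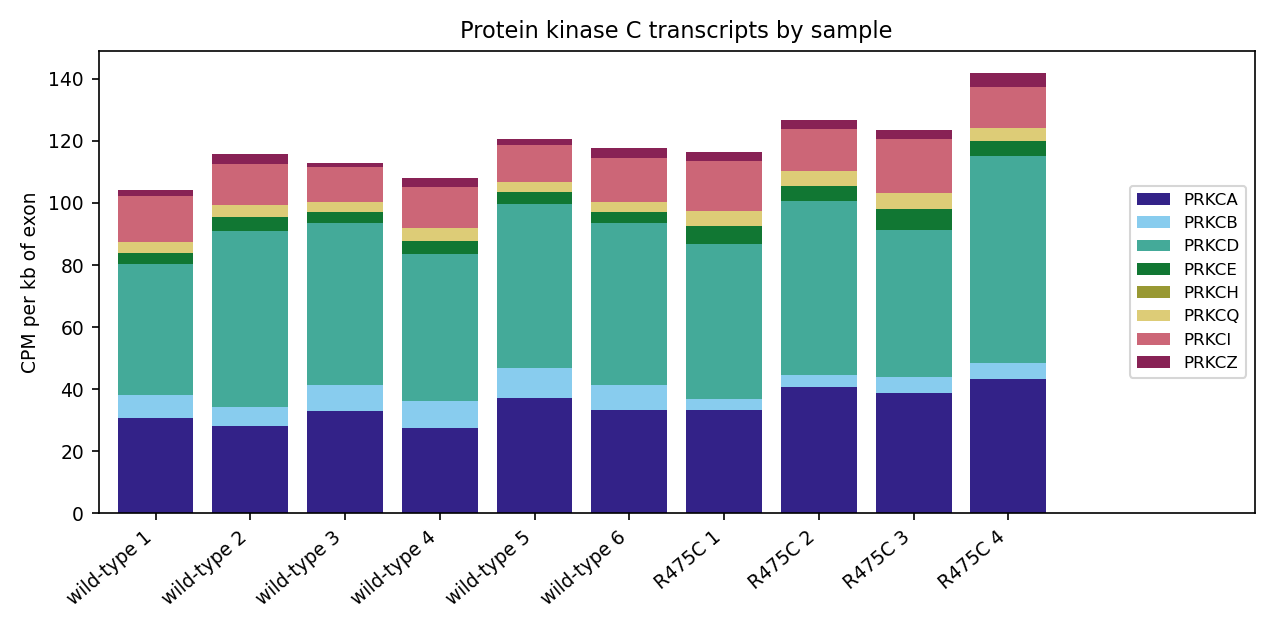
Stacked CPM per kb of exon of the 8 PKC genes in each sample, wild-type 1 to 6 and R475C 1 to 4. PRKCD and PRKCA fill most of every bar, and the PRKCB band is narrower in the R475C samples (3.52 to 5.32 CPM per kb) than in wild-type (5.95 to 9.88).

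Of the 9 members fitted, 7 had a positive and 2 a negative log2 fold change, with a median of 0.18 beside 0.00 over all 17045 genes tested. In the fit over all genes 2 members, MARCKS and PRKCB, lay past the adjusted p threshold of 0.05 as lower, where 1.15% of all genes tested did. As higher it was 1 member, PRKCE, where 1.31% did, with 2.46% of all genes in either direction. In the 10 fits without 1 sample, MARCKS lay past the threshold in 10, PRKCB in 8 and PRKCE in 4. The groups did not overlap for 4 members, 2 lower (2.93% of all genes) and 2 higher (3.19%), with 6.11% of all genes in either direction. The members were picked on this contrast, so these counts are no support for a difference, and nothing is read from the shares.

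The genes whose levels followed MARCKS most closely were ZC3H12C, an RNA-binding protein gene of the regnase family, CYSLTR1, a leukotriene receptor, ENAH, an actin regulator, STAT4, a transcription factor, and GSAP. Likeness was measured as the root mean square difference of log2 CPM, each gene centred on its own mean, over the 10 samples and among 11801 protein-coding genes of at least 1 CPM. It was 0.472, 0.540, 0.595, 0.669 and 0.757 for these 5, where the spread of MARCKS itself by the same measure was 1.96. Genes close to MARCKS or PRKCB were picked for likeness over these same samples. Their lower levels in R475C follow from that choice and support nothing. ENAH held 22.6 to 35.5 CPM in wild-type and 0.620, 5.90, 0.453 and 6.85 CPM in R475C replicates 1 to 4. ZC3H12C held 15.3 to 33.4 CPM in wild-type and 1.19, 4.31, 1.21 and 6.96 CPM in R475C. CYSLTR1, STAT4 and GSAP were lower, with wild-type means of 6.71, 5.92 and 6.45 CPM and R475C means of 1.12, 0.955 and 1.06 CPM. For PRKCB, whose own spread was 0.499, the closest were DENND6B (0.166), CKLF-CMTM1 (0.199), TBC1D7 (0.206), the stress sensor gene ERN1 (0.207) and USP40 (0.210). These genes had wild-type means of 11.3 to 28.6 CPM and log2 fold changes from -1.02 to -0.65, and TBC1D7 was the one whose groups overlapped. Their counts are less certain: CKLF-CMTM1 is a read-through that shares 48.2% of its exon bases with CKLF. DENND6B shares 12.5% with a gene on the opposite strand and 3.25% with another there. TBC1D7 shares 8.43% with a gene on the opposite strand and 6.84% with a gene on its own strand.

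**Figure D3:**
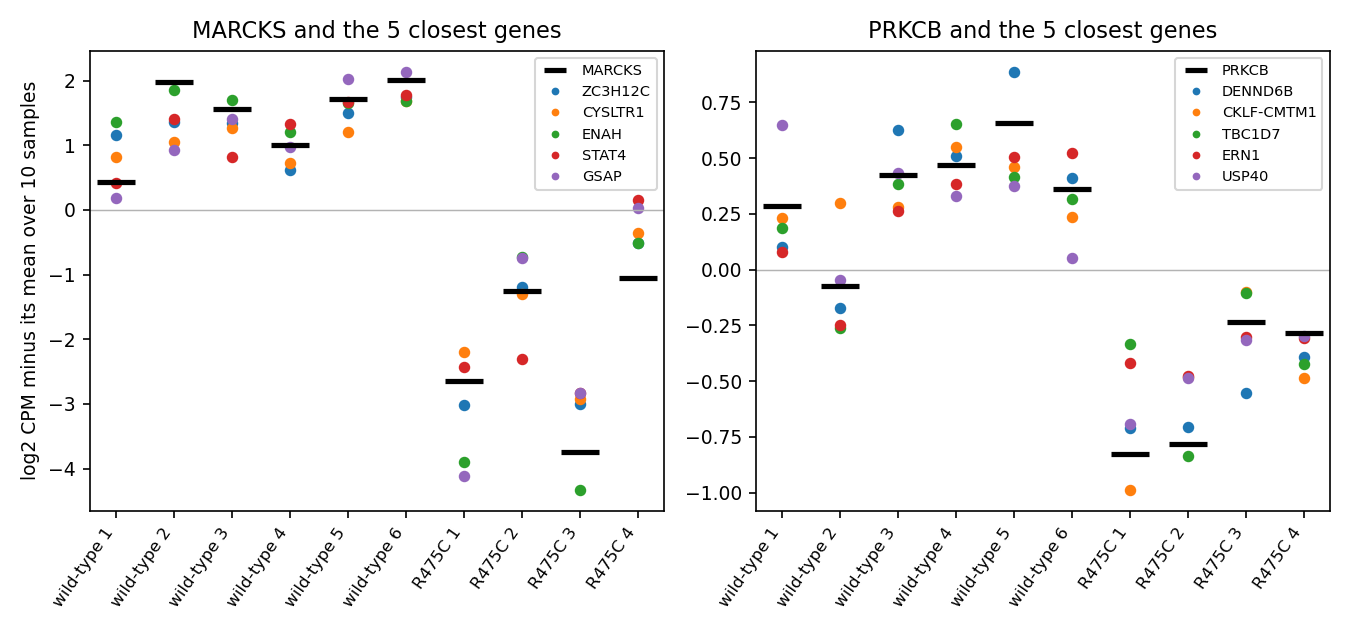
Log2 CPM minus its mean over the 10 samples, for MARCKS (left, black bars) and PRKCB (right, black bars) with the 5 closest genes as dots. The R475C samples lie under the wild-type samples for MARCKS, with R475C replicates 1 and 3 lowest, and the vertical scale of the PRKCB panel is narrower.

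Neighbouring genes were examined within 1 Mb of each start. Near MARCKS 1 of 21 annotated genes was expressed enough to test, HDAC2, a histone deacetylase gene 75666 bases away. HDAC2 fell in R475C, from 94.0 ± 6.92 to 67.4 ± 10.0 CPM (log2 fold change -0.48, SE 0.11, edgeR adjusted p = 0.0409), and its groups did not overlap (85.0 to 100.4 against 52.5 to 73.7 CPM). This call was lost in 8 of the 10 fits without 1 sample (adjusted p up to 0.0885, without wild-type replicate 3) and held without wild-type replicate 1 or 4. Near PRKCB none of 22 tested genes passed edgeR's test, although 4 were higher and 1 was lower with an unadjusted p below 0.05, as were 17.3% of all genes tested, and the median log2 fold change was 0.09. Near PRKCE and PRKCQ none of 8 and 15 passed, with 1 higher in each at an unadjusted p under 0.05. Calls elsewhere were farther from the members and held in all 10 fits without 1 sample. With the nearest samples of a genotype summed, to 3 against 2 libraries, neither they nor HDAC2 were called (edgeR adjusted p from 0.301 to 0.323), and neither was any other gene. RNF19B, a ubiquitin ligase gene 602613 bases from MARCKSL1, rose (0.85, SE 0.12, adjusted p = 0.00583 by edgeR). IL17RB, an interleukin receptor gene 690571 bases from PRKCD, fell (-1.40, SE 0.24, adjusted p = 0.0123 by edgeR). TNFRSF18, a TNF receptor family gene before PRKCZ, fell (-2.07, SE 0.33, adjusted p = 0.00901 by edgeR). Each was the 1 call near its member, of 36 genes tested near MARCKSL1, 42 near PRKCD and 51 near PRKCZ. Of all genes tested, 2.46% were called. Of the genes near PRKCA, PRKCH and PRKCI (2, 14 and 20 tested) none passed, with 1, 0 and 2 higher and 0, 2 and 2 lower at that unadjusted level.

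Genes around the members in the pathway were grouped in 10 lists of 106 genes, of which 93 could be tested. The lists were written with earlier results of these data known, so nothing is read from the shares called in them. By edgeR 4 rose and 1 fell, 5.38% of the genes tested beside 2.46% of all genes, with a median log2 fold change of 0.06. DESeq2 called 11 of the 93 higher and 3 lower, where it called 6.0% of all genes, and limma-voom called 7, where it called 2.48%. With the nearest samples summed none of the 5 genes was called by edgeR (adjusted p from 0.276 to 0.382). Both genes called among diacylglycerol kinases rose, of 7 tested with a median of 0.32. These enzymes remove diacylglycerol, the lipid that activates conventional and calcium-independent PKC. DGKD was at 53.0 to 86.1 CPM in wild-type and 101.3 to 141.9 in R475C (0.79, SE 0.14, adjusted p = 0.0126 by edgeR), and DGKQ at 14.8 to 19.3 and 22.5 to 32.1 CPM (0.60, SE 0.12, adjusted p = 0.0314 by edgeR). The groups did not overlap for either gene. The DGKD call held in all 10 fits without 1 sample, whereas that of DGKQ was lost in 7, held without wild-type replicate 1 or 4 or R475C replicate 3, and had an adjusted p of up to 0.0795 (without R475C replicate 4). None of 9 phospholipase C genes passed edgeR's test, with 1 higher at an unadjusted p under 0.05 and none by DESeq2 or limma-voom. PLCG2, the phospholipase C of the B-cell receptor, was at 634.9 ± 85.8 CPM in wild-type and 548.6 ± 81.4 CPM in R475C (-0.21, SE 0.12, edgeR adjusted p = 0.411).

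In the step from PKC to NF-kB 2 of 15 genes rose and none fell. TAB3, an adaptor of the kinase MAP3K7, was at 42.2 to 57.6 CPM in wild-type and 76.4 to 95.1 in R475C (log2 fold change 0.82, SE 0.11, edgeR adjusted p = 0.00326). An antisense gene that shares 292 of its exon bases, TAB3-AS2, rose as well (1.04). MALT1, a paracaspase that acts with BCL10 downstream of PKC, was at 207 to 263.9 CPM in wild-type and 339.5 to 400 CPM in R475C (0.65, SE 0.09, adjusted p = 0.00474 by edgeR). MALT1 rose where PRKCB was lower, and it overlaps 3 expressed genes on the other strand. The TAB3 and MALT1 calls held in all 10 fits without 1 sample. BCL10 (0.09, SE 0.10, adjusted p = 0.684 by edgeR) did not pass.

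In the list on MARCKS function RDX, which encodes radixin, a linker of membrane and actin, was the 1 of 8 genes called. It fell from 65.4 to 104.5 CPM in wild-type to 46.7 to 62.8 CPM in R475C (log2 fold change -0.63, SE 0.13, edgeR adjusted p = 0.0345), and the call was lost in 6 of 10 fits without 1 sample (adjusted p up to 0.0973, without R475C replicate 2). It held without wild-type replicate 1, 4 or 5 or R475C replicate 3. ZC3H12C lies within the span of RDX on the opposite strand and shares no exon base with it. BASP1, a membrane protein related to MARCKS in function and named here after its values were seen, was at 17.3 to 52.3 CPM in wild-type and 52.7 to 76.2 CPM in R475C (1.07, SE 0.26), not past edgeR's test (adjusted p = 0.0529) but past DESeq2 (adjusted p = 0.00243) and limma-voom (adjusted p = 0.0423).

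None of the other pathway lists had a gene past edgeR's test. Their counts at an unadjusted p under 0.05 stand beside 17.3% of all genes, and those by DESeq2 and limma-voom beside 6.0% and 2.48%. Of 6 tested relatives of PKC (PRKD and PKN kinases) and 9 atypical PKC partners none reached an unadjusted p under 0.05 or was called by DESeq2 or limma-voom. PRKD1, at 0.0399 to 7.24 CPM in wild-type and 0 to 2.32 CPM in R475C, varied most among these relatives. Of 7 other diacylglycerol receptors 1 was higher and 3 were lower at an unadjusted p under 0.05, with 1 lower by DESeq2 and none by limma-voom. Among 11 calcium and calmodulin genes 2 were higher at that level, 1 by DESeq2 and none by limma-voom. For 10 phosphoinositide kinases 1 was higher and 1 lower, as by DESeq2, with none by limma-voom. In PKC maturation and turnover 4 of 11 were higher and 1 lower, with 2 higher by DESeq2 and 1 by limma-voom.

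**Figure D4:**
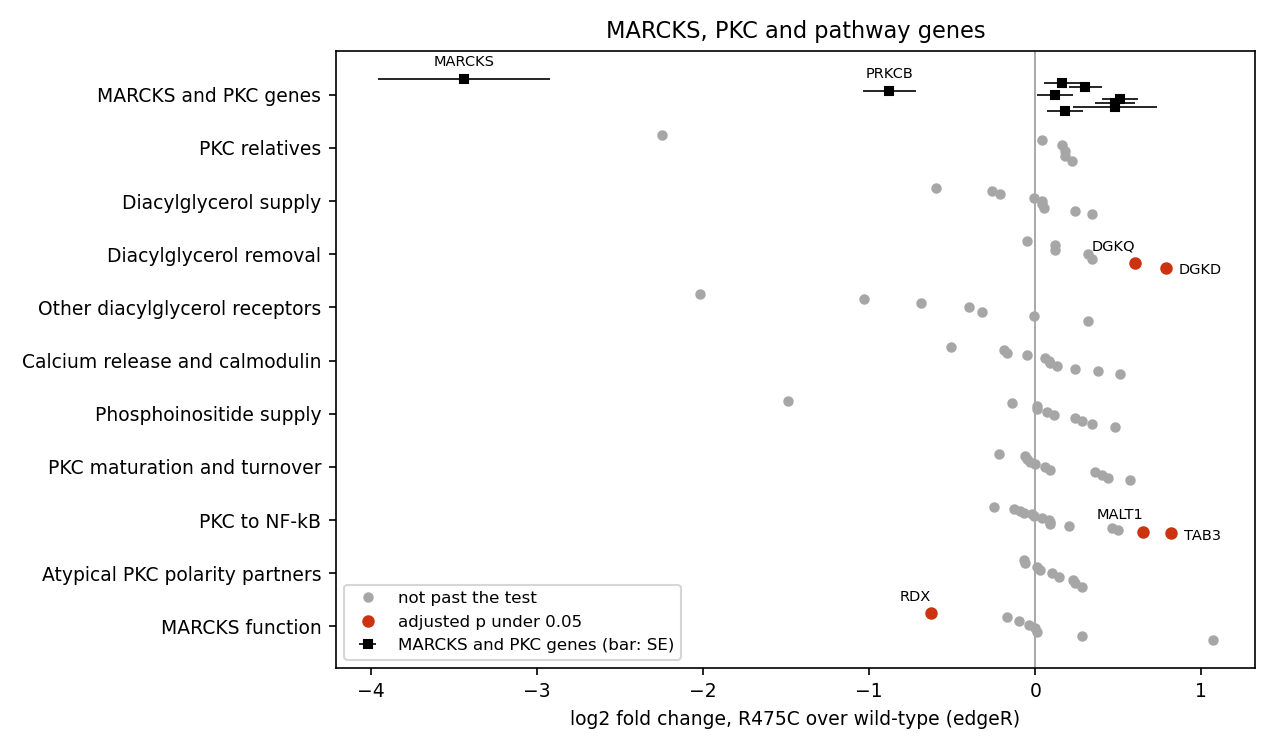
Log2 fold change of R475C over wild-type for the 9 fitted members (squares, bars show SE) and for the tested genes of 10 pathway lists (dots). DGKQ, DGKD, MALT1 and TAB3 lie to the right and RDX to the left as the genes with an adjusted p under 0.05, and MARCKS lies apart at -3.44.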

How the data were processed

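Poly(A)-selected RNA of 10 samples was sequenced. The authors deposited 1 table of raw counts per gene, not normalized; cutadapt 1.10, STAR 2.6.0c and featureCounts are named in the submitters' processing notes. The sources used here state no genome build, annotation or strand setting. All 58721 gene IDs occur in GENCODE release 29 (GRCh38), from which came names, positions and exon lengths. RefSeq promoters (GRCh38.p14) matched all 10 members.

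Samples were grouped by the genotype in their titles. edgeR 4.0.16 (R 4.3.3) was run with TMM factors, filterByExpr (minimum count 10, minimum total 15), and its quasi-likelihood test (glmQLFit, glmQLFTest) on genotype alone, two-sided, with Benjamini-Hochberg adjustment over the 17045 genes kept (419 called). Standard errors are the log2 fold change over the square root of F. Log2 CPM used a prior count of 1. CPM per kb divides CPM by the union of a gene's exons. In the 21 within-genotype pairs of samples the chi-square per gene ran from 10.4 to 82.2, so no library copied another.

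The members, lists and tests were chosen with earlier results of these data known. Named were all members; up to 4 genes called per list, with MALT1, BCL10 and PLCG2 always; the 5 genes most like MARCKS and PRKCB; up to 4 called genes within 1 Mb; and overlapping genes of at least 0.5 CPM. On simulated counts of 6 against 4 samples the test recovered 22% of genes changed 1.5-fold, 50% at 2-fold and 84% at 4-fold, and 6 of 129 genes called were unchanged ones. The simulated samples were drawn independently, without the pairs and sets seen here, so these rates need not hold for these data. Alternatives were RLE or plain library-size scaling, leaving out the low-count filter, a filter of 1 CPM or more in 4 or more samples, DESeq2 1.42.0, limma-voom (limma 3.58.1), the replicate number as a block, the 2 sets as a covariate, summed nearest samples, and leaving out each sample. Each set alone was added after seeing the data. Some genes that these rules name are not reported here.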

Additional observations from a re-analysis of the deposited data

How the results depend on the processing

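Each of the 9 fitted members kept the sign of its log2 fold change under all 11 other settings and in all 10 fits that left out 1 sample. For MARCKS these ran from -3.96 to -3.02 and for PRKCB from -0.99 to -0.79. PRKCE was at 0.32 in set B alone and 0.67 in set A alone against 0.51. MARCKSL1 went down to 0.02 in set A alone, PRKCI to 0.05 in set B alone and PRKCD to 0.01 without R475C replicate 4. For these genes a kept sign says little. The number of genes called depended strongly on the model. It was 419 by edgeR, 1047 by DESeq2, 1128 with the 2 sets as a covariate, 0 with the replicate block and 0 with the nearest samples summed to 3 against 2 libraries. At an unadjusted p under 0.05 the last 2 had 1961 and 2050 genes. The 5 pathway genes called became 14, 12, 0 and 0 under the same settings and 8 in set B alone. Leaving out 1 sample gave 142 (without R475C replicate 3) to 794 (without wild-type replicate 1) genes and 3 to 7 pathway genes. With the replicate block the adjusted p of DGKD was 0.0805, of TAB3 0.122 and of MALT1 0.148, with log2 fold changes of 0.83, 0.79 and 0.64, and in set A alone (2 against 2 samples) DGKD, DGKQ, MALT1 and RDX were not called either. Of the called neighbours of members, RNF19B (0.0866), IL17RB (0.1005), TNFRSF18 (0.149) and HDAC2 (0.171) were lost with the block by adjusted p, RNF19B (0.0564), TNFRSF18 (0.0724) and HDAC2 (0.498) in set A alone, and HDAC2 in set B alone (0.0550) and without the low-count filter (0.0556). The replicate numbers did not pair the samples: deviations of equal-numbered samples correlated at 0.337, 0.159, -0.269 and -0.212, and 0 of 8 samples correlated best with its own number. The block and the summed libraries leave fewer degrees of freedom, and summing also joins the samples that lay closest within a genotype. The cause of the change in calls was not tested for any setting. Library-size scaling shifted the median log2 fold change of all genes to -0.02 from 0.00. Depth limits MARCKS in R475C (16 to 153 reads) and PRKCH (0 to 7 reads) most.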
